A study of Mus musculus with 17 samples.

Results

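Transcripts of 10 genes typical of tumour macrophages were followed in RNA libraries of sorted CD8 T cells. They were C1qa, C1qb and C1qc (the chains of complement C1q), Apoe, Spp1 and Lyz2 (secreted proteins), and Csf1r, Adgre1, Mrc1 and Marco (surface receptors). The genes were chosen by symbol and make up 10 of the 27240 gene symbols in the deposited count table. All 10 were among the 20137 genes that passed the filter on low counts.

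The CD8 T cells had been sorted by flow cytometry from mouse lung tumours and sequenced in bulk, in 17 libraries of 21767045 to 32566456 counts. The mice called KO lacked PD-L1, a ligand of the inhibitory receptor PD-1, in the endothelium (PDL1DEC in the study's text), and were set against mice labelled WT. Core-enriched cells came from macroscopic nodules and rim-enriched cells from parenchymal nodules. The groups were KO core with 6 libraries, WT core with 5, KO rim with 4 and WT rim with 2. The labels used here give no driver of the deletion, tumour model, age or purity of the sort. One of the WT core libraries is labelled a pool. The identifiers F322, F86 and O each occur once in KO core and once in KO rim. The labels do not state that libraries are from separate mice, so each p-value measures a difference against the spread between libraries, which may be technical.

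Macrophages engulf dying cells and debris, and most of them depend on the growth factor CSF1 and its receptor for survival. Macrophages of tumours often make complement C1q and apolipoprotein E, and some make osteopontin, whereas alveolar macrophages of the lung carry the scavenger receptor MARCO. Apart from Spp1, which activated T cells can also make, the 10 genes are not known as typical genes of CD8 T cells. In a bulk library, fewer cells of a type and less RNA per cell cannot be told apart.

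The sequences just upstream of 4 of the genes are shown because C1qb, C1qc and Spp1 were the members whose core and rim levels differed past the threshold in WT, and Lyz2 was the most abundant member. Each is the 250 bases before a start site, from RefSeq on GRCm38.p6, 5′ to 3′ on the strand of the gene. The regions are chr4:136886201-136886450 for C1qb (minus strand), chr4:136892915-136893164 for C1qc (minus strand), chr5:104434861-104435110 for Spp1 (plus strand, first of its listed start sites) and chr10:117282273-117282522 for Lyz2 (minus strand). Capitals mark the letters GAGGAA, the core of sites of the myeloid factor PU.1, or its reverse complement, and TATAAA, the TATA box.
C1qb: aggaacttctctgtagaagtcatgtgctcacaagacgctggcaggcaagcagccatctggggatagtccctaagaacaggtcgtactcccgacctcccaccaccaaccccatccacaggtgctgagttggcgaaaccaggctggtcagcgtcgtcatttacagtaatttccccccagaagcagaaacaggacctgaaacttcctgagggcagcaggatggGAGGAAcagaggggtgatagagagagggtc
C1qc: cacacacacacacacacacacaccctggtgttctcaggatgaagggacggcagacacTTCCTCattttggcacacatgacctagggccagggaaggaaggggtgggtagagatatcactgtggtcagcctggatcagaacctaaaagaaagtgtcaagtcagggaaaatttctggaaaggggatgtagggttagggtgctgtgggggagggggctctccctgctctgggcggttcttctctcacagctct
Spp1: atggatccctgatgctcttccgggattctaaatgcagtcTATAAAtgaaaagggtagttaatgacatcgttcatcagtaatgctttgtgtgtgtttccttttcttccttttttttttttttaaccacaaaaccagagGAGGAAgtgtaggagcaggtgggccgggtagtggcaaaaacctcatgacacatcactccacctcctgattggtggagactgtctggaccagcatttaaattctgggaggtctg
Lyz2: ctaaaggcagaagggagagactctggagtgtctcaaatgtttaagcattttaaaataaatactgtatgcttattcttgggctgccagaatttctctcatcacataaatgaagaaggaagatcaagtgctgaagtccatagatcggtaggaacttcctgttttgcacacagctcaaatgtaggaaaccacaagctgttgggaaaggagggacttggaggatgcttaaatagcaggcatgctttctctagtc

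Of the 10 genes, 7 had a start site in the sequence table, with 10 windows in all because Spp1 and Apoe had several, and C1qa, Csf1r and Adgre1 were not searched. GAGGAA was found on either strand in 7 of the 10 windows, against 23.25% of 32851 promoter windows of the same length. Counted by gene, it was found in 6 of the 7, a count not comparable with that share because Spp1 and Apoe had several windows. The exception among the 7 genes was Lyz2. TATAAA lay in the first Spp1 window and in an Apoe window, where copies on both strands overlapped, against 12.4% of all windows. The C/EBP letters TTNNGCAA were found in the second Spp1 window (9.56% of all windows), and the AP-1 letters TGANTCA in no window of the 10 (6.75% of all windows). These matches describe letters in a window and say nothing of binding.

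In the libraries the 10 transcripts stood beside a strong CD8 signal. Levels are given in CPM, a gene's count relative to the total of its library after TMM scaling. The summed level of 12 T cell and CD8 genes ran from 5425 to 10460 CPM, and that of the 10 macrophage genes from 597 to 7643 CPM. Per kilobase of exon, the scale on which genes can be compared, Lyz2 averaged 1472 CPM over all libraries, against 351.7 for Cd8a, 874.4 for Cd8b1 and 245 for Cd3e. Apoe averaged 241 CPM per kilobase, C1qb 164.1, Spp1 115, C1qa 75.5 and C1qc 55.7. The receptors were lower, with 26.4 CPM per kilobase for Csf1r, 15.01 for Adgre1, 4.30 for Mrc1 and 1.76 for Marco. Cd4, which marks helper T cells and some myeloid cells, ran from 3.73 to 140 CPM.

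Libraries were alike in size, and between 16645 (KO rim F86) and 22012 (KO rim O) genes had at least 1 count. The library with the most genes detected, KO rim O, held the highest level of 8 of the 10 macrophage genes. The library with the fewest, KO rim F86, held the lowest or joint lowest level of 5 of them. By reads of sex-linked genes, 12 libraries were female, those of F322 and O were male, and the pool held both sexes.

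**Figure D1:**
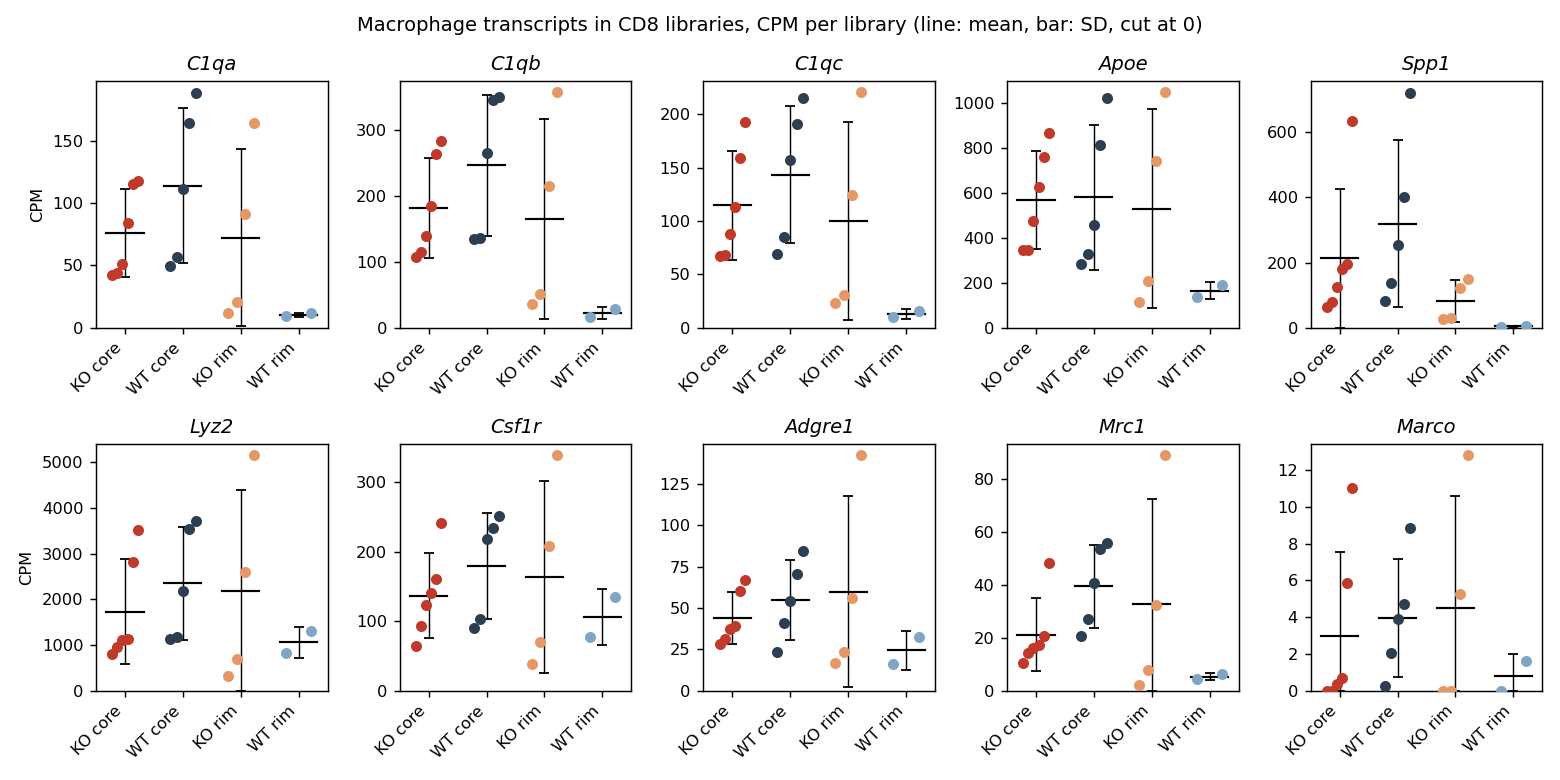
Level of each of the 10 genes in every library, in CPM on a linear axis, by group; points are libraries, the line is the group mean and the bar its SD, cut at 0. WT rim had the lowest mean of the 4 groups for all 10 genes, and KO rim held both the highest and the lowest (for Marco, joint lowest) library of the series for Apoe, Lyz2, Csf1r, Mrc1 and Marco.

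C1qa, C1qb and C1qc, which encode the 3 chains that assemble into the recognition molecule of the classical complement pathway, were high in core of both genotypes, split in KO rim and low in WT rim. C1qb had a lowest, median and highest level of 108, 162 and 284 CPM in KO core. In WT core it was at 351 and 346 CPM in H876 and H873, 266 CPM in F164, and 137 and 134 CPM in the pool and H719. In KO rim O and F15 had 358 and 216 CPM, and F322 and F86 had 52.0 and 36.1 CPM, against 28.9 and 16.3 CPM in WT rim H874 and H877. The WT rim libraries were below all 15 others, and KO rim F322 and F86 came next.

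C1qa showed the same order of groups. It had a lowest, median and highest level of 42.6, 67.3 and 118 CPM in KO core, and 111.5, 49.2, 163.8, 188 and 56.8 CPM in the WT core libraries F164, H719, H873, H876 and pool. In KO rim O and F15 had 164.1 and 91.6 CPM, and F322 and F86 had 20.96 and 11.8 CPM, against 11.7 and 9.57 CPM in WT rim H874 and H877. KO rim F86 came within 0.1 CPM of WT rim H874, so that the rim groups all but touched. C1qc ran at 67.1, 101 and 192 CPM (lowest, median, highest) in KO core and at 157, 85.1, 215, 190 and 69.6 CPM in the same order of WT core libraries. It stood at 124, 30.7, 23.6 and 220 CPM in KO rim F15, F322, F86 and O, and at 16.2 and 9.996 CPM in WT rim H874 and H877. Here too both WT rim libraries were the lowest of the series.

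Apoe, which encodes the lipid carrier apolipoprotein E, ran at 346, 549 and 864 CPM (lowest, median, highest) in KO core. In the WT core libraries F164, H719, H873, H876 and pool it stood at 811, 330, 1023, 458 and 283 CPM. It stood at 742, 210, 117 and 1049 CPM in KO rim F15, F322, F86 and O, against 138 and 193 CPM in WT rim H874 and H877. KO rim F86 lay below both WT rim libraries, so the rim groups overlapped, while the WT core and WT rim libraries did not.

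Spp1, which encodes osteopontin, a secreted ligand of integrins and CD44, varied most, by 174-fold between its highest and its lowest library. It ran at 63.4, 152 and 633 CPM (lowest, median, highest) in KO core, the highest being F319. In WT core F164 and H719 had 718.8 and 401 CPM, H873 and H876 had 253 and 138 CPM, and the pool had 83.8 CPM. In KO rim F15 and O had 151 and 123 CPM, and F86 and F322 had 29.9 and 27.3 CPM, against 6.05 and 4.13 CPM in WT rim H874 and H877. Every KO rim library was above both WT rim libraries, and every WT core library was above them too.

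Lyz2, which encodes the lysozyme of macrophages and other myeloid cells, was the most abundant of the 10 per kilobase in every library. It ran at 795, 1126 and 3524 CPM (lowest, median, highest) in KO core and at 3711, 1164, 2177, 3540 and 1130 CPM in WT core F164, H719, H873, H876 and pool. It stood at 2588, 692, 321 and 5145 CPM in KO rim F15, F322, F86 and O, against 824 and 1303 CPM in WT rim H874 and H877. In contrast to the C1q genes, WT rim H877 lay above 9 of the 16 other libraries for Lyz2, and the groups overlapped in all 4 comparisons. Lyz2 has a near-identical neighbour, Lyz1, at 0.294 to 66.6 CPM, and the way reads were shared between them is not given in the sources used here, so the Lyz2 values are uncertain to that extent.

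Csf1r encodes the receptor of CSF1. It ran at 64.2, 132 and 242 CPM (lowest, median, highest) in KO core and at 218, 90.6, 251, 234 and 104 CPM in WT core F164, H719, H873, H876 and pool. It stood at 208, 70.3, 37.8 and 340 CPM in KO rim F15, F322, F86 and O, against 77.2 and 134 CPM in WT rim H874 and H877. The WT rim libraries lay inside the ranges of KO core and KO rim, and H874 was below every WT core library while H877 was not. Csf1r overlaps Hmgxb3 on the other strand (12.5 to 59.6 CPM), and without a stated strand setting reads of the overlap cannot be told apart.

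Adgre1 encodes F4/80, the classic surface marker of mouse macrophages. It ran at 28.4, 38.1 and 67.0 CPM (lowest, median, highest) in KO core and at 84.8, 41.2, 54.4, 70.8 and 23.4 CPM in WT core F164, H719, H873, H876 and pool. It stood at 56.3, 23.6, 16.99 and 142 CPM in KO rim F15, F322, F86 and O, against 16.2 and 32.6 CPM in WT rim H874 and H877. The groups overlapped in all 4 comparisons.

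Mrc1 encodes the mannose receptor CD206, which takes up glycoproteins and is used as a marker of alternatively activated macrophages. It ran at 10.3, 16.7 and 48.2 CPM (lowest, median, highest) in KO core, with F319 the highest, and at 55.7, 26.9, 40.5, 53.5 and 20.6 CPM in WT core F164, H719, H873, H876 and pool. It stood at 32.5, 7.92, 2.14 and 88.8 CPM in KO rim F15, F322, F86 and O, against 6.19 and 4.27 CPM in WT rim H874 and H877. All WT core libraries were above both WT rim libraries, whereas KO rim reached from below WT rim to the highest level of the series.

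Marco, the scavenger receptor of alveolar macrophages, had the lowest level of the 10 per kilobase. It ran at 0, 0.531 and 11.03 CPM (lowest, median, highest) in KO core and at 4.73, 3.90, 8.85, 2.07 and 0.250 CPM in WT core F164, H719, H873, H876 and pool. It stood at 5.28, 0, 0 and 12.8 CPM in KO rim F15, F322, F86 and O, against 1.64 and 0 CPM in WT rim H874 and H877. Marco had no count in 5 libraries, and a count of 0 allows up to 3 counts, or 0.106 CPM in KO core F318, 0.120 in KO core F86, 0.127 in KO rim F322, 0.126 in KO rim F86 and 0.141 in WT rim H877. These limits cover counting error alone, since no molecular identifiers are named and PCR copies may be among the reads.

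The mean of WT rim was the lowest of the 4 groups for each of the 10 genes. The mean of WT core was the highest for 8, and that of KO rim for Adgre1 and Marco. For C1qb the group means were 182 ± 76.2 in KO core, 247 ± 107 in WT core, 165 ± 152 in KO rim and 22.6 ± 8.92 CPM in WT rim (SD, n = 6, 5, 4 and 2). For Mrc1 they were 21.1 ± 13.7 in KO core, 39.45 ± 15.6 in WT core, 32.8 ± 39.5 in KO rim and 5.23 ± 1.35 CPM in WT rim. For Lyz2 they were 1723 ± 1149 in KO core, 2344 ± 1244 in WT core, 2187 ± 2208 in KO rim and 1064 ± 338.9 CPM in WT rim. Of neighbouring groups in these orders, KO core and WT core overlapped for all 10 genes, as did KO core and KO rim.

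Core was set against rim within WT to ask how far the site of sampling went with these transcripts. C1qb, C1qc and Spp1 were higher in WT core than in WT rim, and the other 7 genes had positive log2 fold changes that did not pass. The log2 fold change of C1qb was 3.45 with an SE of 0.85 (edgeR's quasi-likelihood test, Benjamini-Hochberg adjusted p = 0.0328 over all genes). That of C1qc was 3.45 with an SE of 0.85 (edgeR adjusted p = 0.0335), and that of Spp1 was 5.97 with an SE of 1.29 (edgeR adjusted p = 0.0196). The third C1q gene, C1qa, had a log2 fold change of 3.42 with an SE of 0.95 and missed the threshold of 0.05 (edgeR adjusted p = 0.0553).

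So 3 of the 10 genes were called, beside 3.86% of all genes tested, or 2.1% called higher in WT core. Calls over all genes split into 422 higher and 355 lower in WT core, and into 195 higher and 79 lower when libraries were scaled by T cell genes. Their median log2 fold change was 2.59, against 0.03 over all 20137 genes, and at an unadjusted p under 0.05 there were 6 of the 10, beside 18% of all genes. The remaining log2 fold changes were 2.91 for Mrc1, 2.27 for Marco, 1.81 for Apoe, 1.17 for Adgre1, 1.14 for Lyz2 and 0.76 for Csf1r, with edgeR adjusted p from 0.148 to 0.695. The WT core libraries were all above both WT rim libraries for C1qa, C1qb, C1qc, Apoe, Spp1 and Mrc1, which is 6 of 10 genes, beside 10.1% of all genes.

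The call rests on 2 WT rim libraries. The number of all genes called also moved with the library left out, as given with the processing below. Without H874 or without H877, 0 of the 10 genes were called by edgeR, and without WT core H873 only Spp1 was, while without KO rim F322, F86 or O, C1qa was called as well. DESeq2 called 6 (the 3 C1q genes, Spp1, Apoe and Mrc1, with adjusted p from 8.11e-08 for Spp1 to 0.0418 for Apoe), beside 9.47% of all genes. limma voom with library weights called 0 of 10 (0.69% of all genes). Scaling by T cell genes in place of TMM left Spp1 alone (1.36% of all genes) and moved the median of all genes to -0.11 in KO against WT core, -0.15 in KO against WT rim and 0.13 in KO core against KO rim. All 10 log2 fold changes stayed positive under every setting tried.

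In the same WT comparison, markers of several other cells moved too, though not all in the same direction. All 8 tested neutrophil genes had positive log2 fold changes (median 1.70, summed level 124 to 386 CPM in WT core and 58.5 to 128 CPM in WT rim, with Ngp and Ltf at 0 in WT rim). So did 13 of 16 genes of lung epithelium and tumour (median 1.95, 350 to 1029 and 182 to 638 CPM) and 9 of 10 genes of fibroblasts and mural cells (median 1.71, 21.5 to 74.3 and 9.85 to 11.8 CPM, Lum at 0 in WT core). None of these genes was called by edgeR, and their part in the result was not tested. In contrast, 10 of 11 B and plasma cell genes (median -0.93) and 7 of 11 dendritic cell genes (median -0.34) were negative. Endothelial genes split into 5 positive and 5 negative (median -0.05), and all 7 MHC class II genes were positive (median 0.51). Of 6 genes of CD4 and regulatory T cells, 4 were positive (median 1.41), and Il2ra was called higher, beside 3.86% of all genes. The summed level of the 12 T cell and CD8 genes was 5425 to 10460 CPM in WT core and 7737 to 8081 CPM in WT rim, with a median log2 fold change of 0.13.

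**Figure D2:**
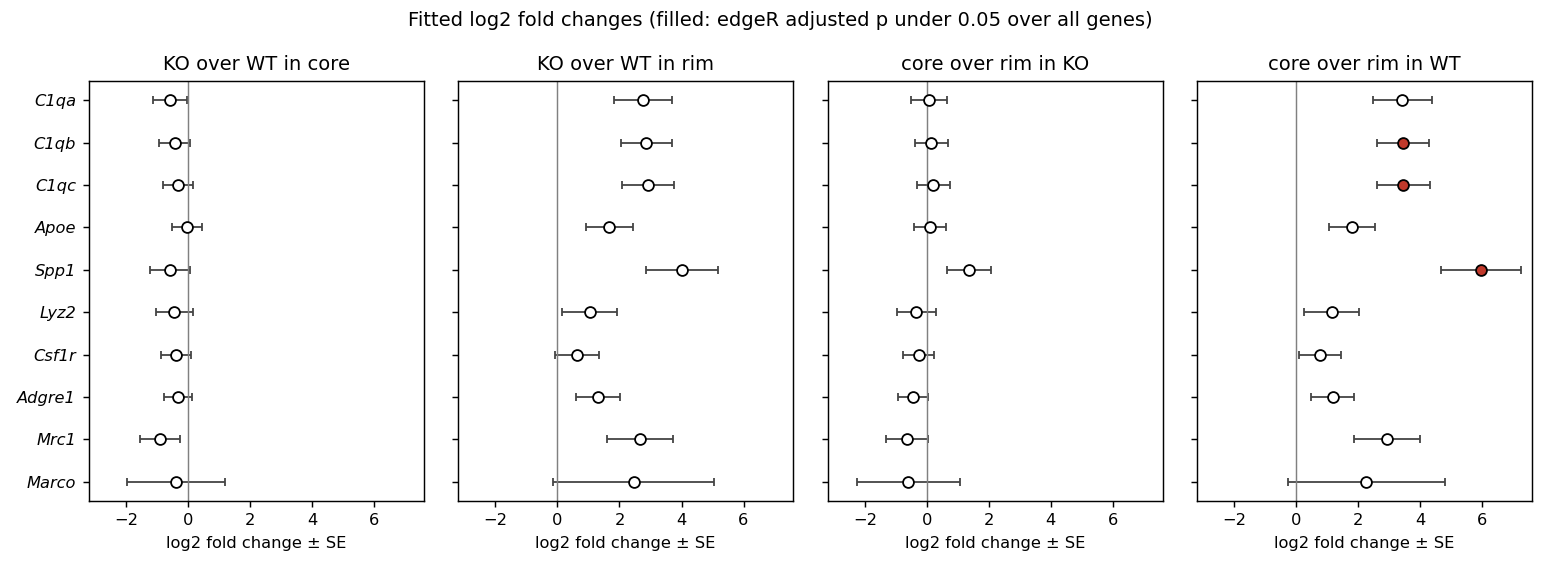
Fitted log2 fold change of each gene with its SE in the 4 comparisons of groups, on a common axis; filled points have an edgeR adjusted p under 0.05 over all genes. C1qb, C1qc and Spp1 are filled in WT core against WT rim, and no point is filled in the other panels.

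KO was set against WT within rim to ask whether loss of endothelial PD-L1 went with these transcripts there. All 10 genes had positive log2 fold changes and none passed by edgeR (0% of all genes were called). Spp1 had a log2 fold change of 4.02 with an SE of 1.17 (edgeR adjusted p = 0.39). C1qc had 2.93 with an SE of 0.84 (edgeR adjusted p = 0.379), C1qb 2.87 with an SE of 0.83 (edgeR adjusted p = 0.38) and C1qa 2.76 with an SE of 0.92 (edgeR adjusted p = 0.488). The others ran from 0.63 for Csf1r to 2.65 for Mrc1.

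The median over the 10 was 2.55, against 0.01 over all genes. At an unadjusted p under 0.05 there were 6 of the 10, beside 7.35% of all genes, which is 1480 genes. For C1qa, C1qb, C1qc and Spp1 all 4 KO rim libraries were above both WT rim libraries, beside 6.86% of all genes. DESeq2 called those same 4 genes (adjusted p from 0.00401 for C1qc to 0.024 for C1qa), beside 1.33% of all genes, and limma voom with library weights called none of the 10 and 6 genes in all. Without KO rim O the log2 fold change of C1qb was 2.17, that of Lyz2 0.18 and that of Csf1r 0.0012, and the median over the 10 was 1.28. In female libraries alone the median was 1.70 and with the identifier as a replicate block in limma voom it was 1.35, with all 10 positive in each case. The female libraries of KO rim are F15 and F86 alone, so the female fit also leaves out KO rim O.

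KO rim O also held the highest summed level of 16 alveolar macrophage genes, 2173 CPM against 260 to 795 CPM in the other KO rim libraries and 307 to 622 CPM in WT rim. Its 17 genes of lung epithelium and tumour summed to 1109 CPM, against 286 to 515 CPM in the other KO rim libraries and 182 to 638 CPM in WT rim. Between KO rim and WT rim, 15 of 16 tested epithelial genes (median 1.67), 8 of 10 fibroblast genes (2.42) and 7 of 8 neutrophil genes (1.01) had positive log2 fold changes, with none called by edgeR. Other lists went the other way. All 7 MHC class II genes (median -0.34), 10 of 11 B and plasma cell genes (-0.58) and 10 of 11 dendritic cell genes (-0.87) were negative. So were 8 of 11 monocyte genes (-0.26), again with none called, while endothelial genes split into 5 positive and 5 negative. The part of these lists in the difference of the macrophage genes was not tested.

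KO was also set against WT within core. All 10 log2 fold changes were negative and small, from -0.90 for Mrc1 to -0.03 for Apoe, with a median of -0.42 against -0.01 over all genes. None passed (edgeR adjusted p from 0.984 to 1, with 0% of all genes called), and none had an unadjusted p under 0.05, beside 6.18% of all genes (1244). C1qb, for example, differed by -0.44 with an SE of 0.49 and Spp1 by -0.59 with an SE of 0.64. DESeq2 called 9 genes (0.0447%) and limma voom with library weights 0, none of them among the 10. Without WT core H873 the value for Apoe was 0.26 and that for Marco 0.13.

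Core against rim within KO showed no common direction. The log2 fold change was positive for C1qa, C1qb, C1qc, Apoe and Spp1 (0.07 to 1.36) and negative for Lyz2, Csf1r, Adgre1, Mrc1 and Marco (-0.64 to -0.26), with a median of -0.09 against 0.03 over all genes. None passed (edgeR adjusted p from 0.674 to 0.995, 0% of all genes called), and none had an unadjusted p under 0.05, beside 7.95% of all genes (1600). DESeq2 called 35 genes (0.174%) and limma voom with library weights 2, none among the 10. The direction depended on single libraries: without KO rim O all 10 were positive (median 0.72), and without KO core F219, KO rim F322 or KO rim F86 only 1 of 10 was (medians -0.22, -0.37 and -0.44). All 10 were also positive in female libraries alone (median 0.36). That set keeps only F15 and F86 in KO rim, so KO rim O is left out there as well.

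The difference between the genotype effects in core and in rim was negative for all 10 genes, with a median of -3.06 on the log2 scale against -0.01 over all genes, or -1.89 without KO rim O. Spp1 had -4.61 with an SE of 1.31 (edgeR adjusted p = 0.449), C1qa -3.35 with an SE of 1.06 and C1qb -3.31 with an SE of 0.95 (edgeR adjusted p = 0.45). No gene of the 20137 was called by edgeR (0%), while 5 of the 10 had an unadjusted p under 0.05, beside 7.68% of all genes (1547). DESeq2 called C1qa, C1qb, C1qc and Spp1 (adjusted p from 0.0134 for C1qb to 0.0368 for C1qa), beside 0.8% of all genes, and limma voom with library weights called 0. These comparisons share groups, so they are not independent of each other.

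Ratios within a library show how the mix of the 10 transcripts differed. The ratio of C1qc to C1qb was nearly fixed, from 0.509 to 0.678 over the 17 libraries, as was that of C1qa to C1qb, from 0.327 to 0.588. These 3 genes lie side by side on chromosome 4 within 18719 bases, on the minus strand.

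The ratio of Lyz2 to C1qb, in contrast, ran from 5.16 to 12.4 in KO core, 6.29 to 13.9 in WT core and 8.91 to 14.4 in KO rim, and was 28.5 and 80.03 in WT rim H874 and H877. That of Csf1r to C1qb ran from 0.597 to 1.01 in KO core, 0.666 to 0.821 in WT core and 0.95 to 1.35 in KO rim, and was 2.67 and 8.26 in WT rim. Both WT rim libraries were above all 15 others in these ratios. For Adgre1 to C1qb the WT rim values were 0.56 and 2, against at most 0.471 elsewhere, and for Apoe to C1qb 4.79 and 11.8, against at most 4.13.

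Spp1 went the other way. Its ratio to C1qb was 0.21 and 0.254 in WT rim, below the 0.345 to 3.43 of the other libraries. It was highest in KO core F319 (3.43), WT core H719 (2.99) and WT core F164 (2.70), while no other library exceeded 1.085. Mrc1 to C1qb ran from 0.0593 to 0.262, with WT rim at 0.214 and 0.262. The ratios were not tested.

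**Figure D3:**
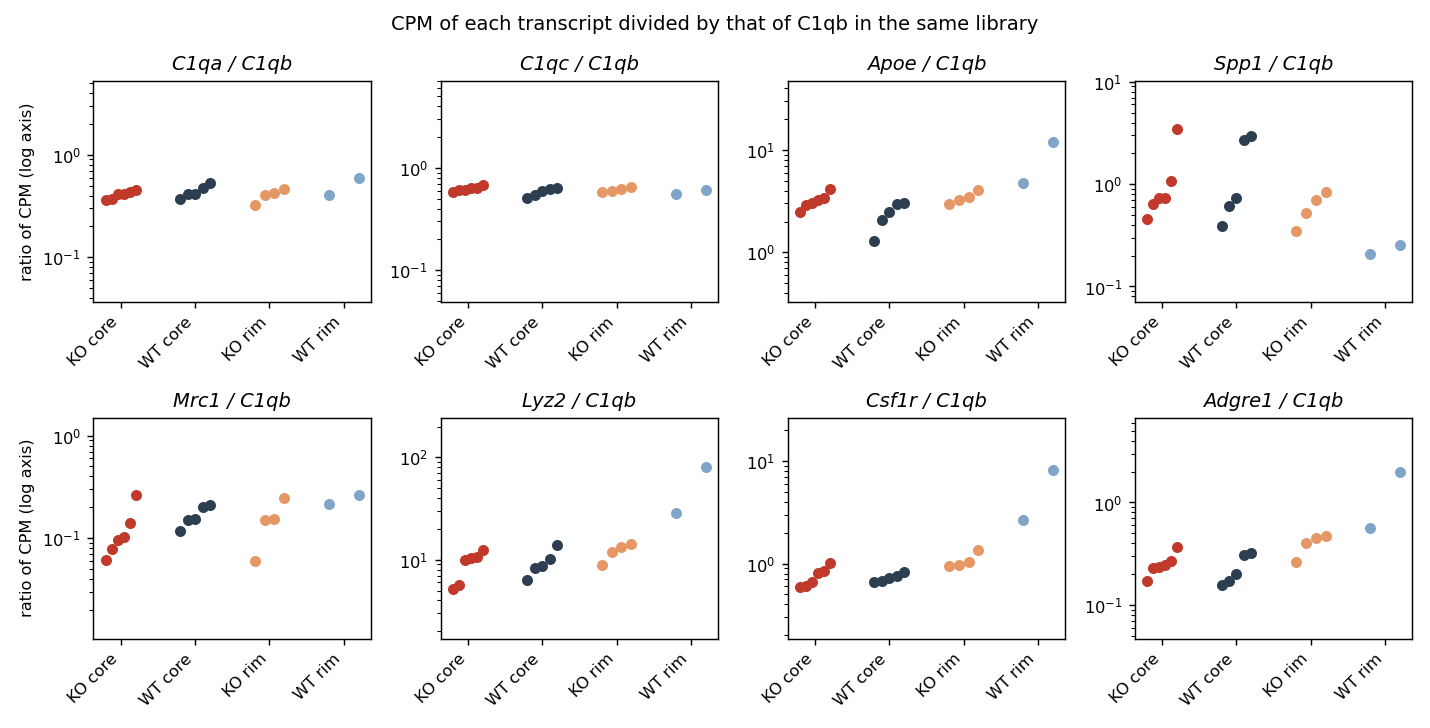
CPM of 8 of the genes divided by the CPM of C1qb in the same library, on log axes, by group; points are libraries. C1qa and C1qc keep to C1qb within narrow ranges in all groups, Lyz2, Csf1r, Adgre1 and Apoe are highest against C1qb in WT rim, and Spp1 is lowest there. Marco is left out because it was 0 in 5 libraries.

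Across the 17 libraries, levels of the 10 genes moved together. Of the 45 pairs, 43 had a Pearson correlation of log2 CPM that passed a two-sided permutation test with 100000 resamples (Benjamini-Hochberg over the 45 pairs), with a median r of 0.79. The closest pair was C1qb and C1qc (r = 0.997, Spearman's rho = 0.985, permutation p = 1e-05, the smallest the resamples can give, adjusted p = 3.75e-05). C1qa with C1qb had r = 0.989 (rho = 0.990, permutation p = 1e-05 for both), Lyz2 with Adgre1 r = 0.921 and rho = 0.897 (permutation p = 1e-05 and 2e-05), and Lyz2 with Csf1r r = 0.913 and rho = 0.833 (permutation p = 1e-05 and 9e-05). Without the 2 libraries farthest from the median of the first gene, these were 0.994, 0.995, 0.895 and 0.844. The pairs that did not pass were Spp1 with Lyz2 (r = 0.468, permutation p = 0.0589, adjusted 0.0602; rho = 0.537, permutation p = 0.0284) and Spp1 with Csf1r (r = 0.434, permutation p = 0.0824, adjusted 0.0824; rho = 0.483, permutation p = 0.0514).

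Since the groups differ in level, the pairs were also taken with group means subtracted, and 44 of 45 passed with a median r of 0.85. Within groups Csf1r followed C1qb more closely (r = 0.911, against 0.725 over all libraries), and so did Lyz2 (0.892, against 0.736), while Spp1 followed C1qb less (0.575, against 0.85). In the 11 core libraries alone 23 of the 45 pairs passed, with a median r of 0.68. There Spp1 was close to Marco (r = 0.838, adjusted permutation p = 0.0101) and Mrc1 (0.742, adjusted permutation p = 0.0244) and distant from C1qb (0.389, adjusted permutation p = 0.261). Marco had the lowest correlations of the 10 over all libraries (median r of 0.64), at the lowest counts. Libraries share depth and cell mix, so each library contributes to all 45 pairs at once.

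**Figure D4:**
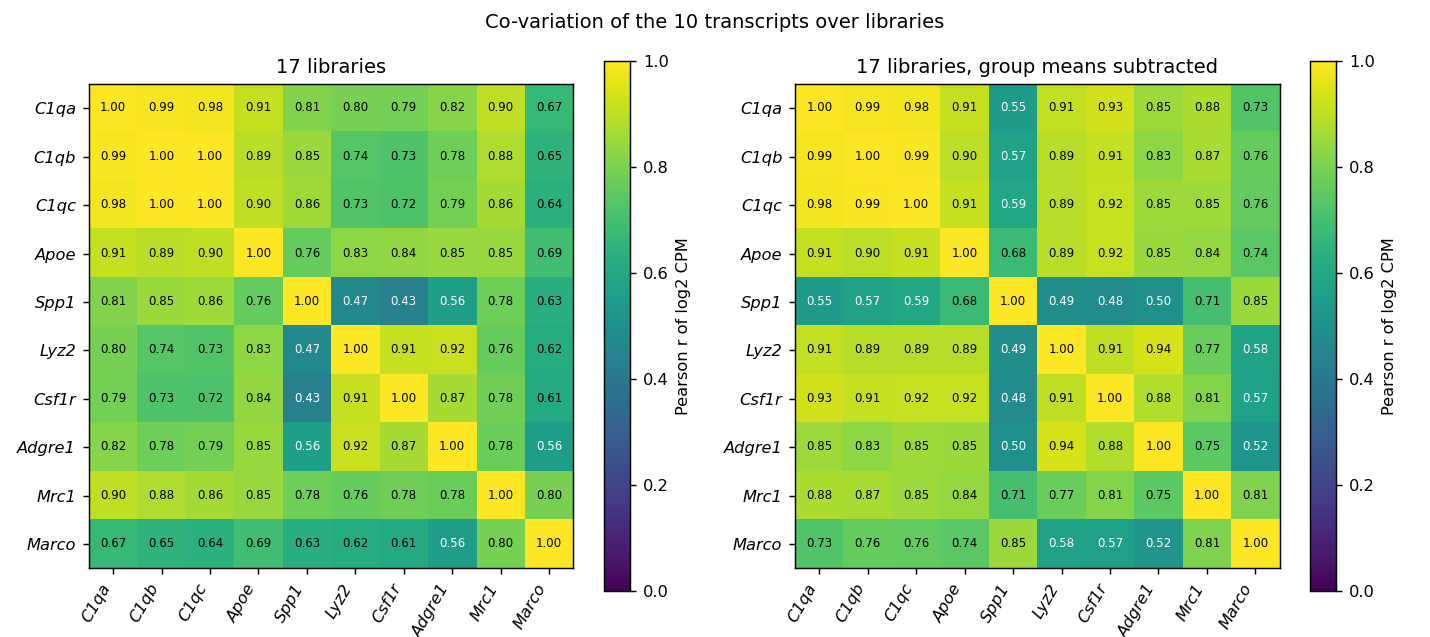
Pearson correlation of log2 CPM for each pair of the 10 genes over 17 libraries, left, and over the same libraries with group means subtracted, right; colours run from 0 to 1 and each cell prints its r. The C1q genes stay above 0.97 with each other on both sides, and Spp1 has its lowest values with Lyz2 and Csf1r, 0.47 and 0.43 on the left.

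Among 12000 genes of at least 1 CPM on average, predicted genes left out, those whose log2 CPM followed the mean of the 10 most closely were Ms4a7 (r = 0.959), Ccr1 (0.957), Fcgr3 (0.953), Ralb (0.952), Osm (0.939), Alas1 (0.937), Clec5a (0.932), Dab2 (0.927), Ms4a6d (0.923) and Clec4n (0.922). Fcgr3 encodes an Fc receptor of myeloid and natural killer cells, Ccr1 a chemokine receptor, and Ms4a7 a membrane protein used as a macrophage marker. C1qa was closest to Ccr1 (0.966), C1qb to Ccl12 (0.945) and C1qc to Fcgr1 (0.953), a high-affinity Fc receptor. Apoe was closest to Fcgr3 (0.938), Mrc1 to Ms4a7 (0.913) and Marco to Slco2b1 (0.862). Lyz2 was closest to Cd9 (0.974), Ear2 (0.939), an eosinophil-type ribonuclease of myeloid cells, and Klra2 (0.938). Adgre1 was closest to Plin2 (0.930), which coats lipid droplets, and then to Cd9 (0.915) and Klra2 (0.906). Csf1r was closest to Ifitm3 (0.946) and Ralb (0.941), and Spp1 to Tspan4 (0.917), Mrps14 (0.897) and Tbc1d7 (0.887), none of which is on the lists of the other genes. These are descriptions over 17 libraries that share cell mix and depth. Of the 12 T cell and CD8 genes none followed the mean of the 10 closely. Cd247 (-0.72), Lck (-0.55), Cd2 (-0.53), Cd28 (-0.51) and Cd8b1 (-0.41) had negative correlations with it. The others ran from -0.10 for Thy1, through -0.02 for Cd3e, to 0.23 for Cd8a.

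Other genes of macrophages gave a measure of how far the pattern reached. Of 36 further tumour macrophage genes, 32 had a higher fitted level in WT core than in WT rim, with a median log2 fold change of 1.61, but none was called by edgeR. The most abundant, the protease Ctss, averaged 932 ± 484 CPM in WT core and 494 ± 251 CPM in WT rim (SD, n = 5 and 2). The inflammatory cytokine Il1b averaged 612 ± 400 CPM in WT core and 284 ± 193 CPM in WT rim, the endotoxin co-receptor Cd14 367 ± 222 and 106 ± 65.2 CPM, and the adaptor Fcer1g 260 ± 167 and 121 ± 84.0 CPM. Between KO rim and WT rim 31 of the 36 were positive (median 1.01), again with none called. In core, 26 of the 36 had negative log2 fold changes in KO against WT (median -0.17).

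Not all macrophage genes went with the 10. Of the same list, Cx3cr1 (r = -0.184 with their mean), Cd163 (-0.135), Cd274 (0.0604) and Pltp (0.110) did not follow them. Nos2 (0.171), Ms4a4c (0.237), Maf (0.243), Tyrobp (0.345) and Spi1 (0.35) did so weakly. All of these were singled out after their values were seen. Cx3cr1, a chemokine receptor that effector T cells also carry, averaged 107 ± 26.8 CPM in WT core and 212 ± 212 CPM in WT rim. Spi1, which encodes PU.1, averaged 25.5 ± 3.64 CPM in WT core and 36.2 ± 29.6 CPM in WT rim. The scavenger receptor Msr1, also chosen after its values were seen, averaged 66.8 ± 29.8 CPM in WT core and 7.94 ± 3.33 CPM in WT rim (log2 fold change 3.07, edgeR adjusted p = 0.062).

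Partners of the 10 genes were counted by role. Of 15 tested genes of complement and its receptors, C1ra, the protease that docks to C1q, was called higher in WT core than in WT rim (3.34 ± 1.82 and 0.0663 ± 0.0937 CPM, log2 fold change 5.54, edgeR adjusted p = 0.0426). Its WT rim levels were 0 and 0.133 CPM, at most 3 counts, so the size of its fold is uncertain. Cd55, an inhibitor of complement that T cells also carry, was called lower (56.7 ± 14.3 CPM in WT core and 181 ± 174 CPM in WT rim, log2 fold change -1.68, edgeR adjusted p = 0.0462). The WT rim libraries had 58.5 and 304 CPM of Cd55, against 37.1 to 71.6 CPM in WT core, so these groups overlapped. The other 13 were not called, 11 of them with positive log2 fold changes. Of all genes tested, 3.86% were called in this comparison. None of the 15 was called in the other comparisons.

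Among 7 osteopontin receptors, 4 were positive and 3 negative in WT core against WT rim (median 0.46), and none was called. The integrin chain Itgb1 averaged 794 ± 428 CPM in WT core and 931 ± 898 CPM in WT rim, and Cd44 averaged 384 ± 85.2 CPM in WT core and 279 ± 185 CPM in WT rim. Of 7 growth factors of macrophages and their receptors, 6 were positive (median 0.62) and none was called, with Csf1 itself at 56.7 ± 33.2 CPM in WT core and 38.1 ± 20.4 CPM in WT rim. Of 12 tested lipid and apolipoprotein genes, 7 were positive (median 0.08), and of 10 lysozyme and lysosome genes 8 were (median 0.44), with none called on either list. Of 11 efferocytosis and scavenger receptors other than Mrc1 and Marco, 10 were positive (median 1.26) and none was called. Clec7a, a receptor for fungal glucans, averaged 173 ± 86.1 CPM in WT core and 57.0 ± 41.3 CPM in WT rim.

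Alveolar macrophage genes other than Marco were counted in the same way. Of 16, 11 were positive in WT core against WT rim (median 0.32), 14 in KO rim against WT rim (median 0.93), and 2 in KO core against KO rim (median -0.77), with none called by edgeR. Chil3, a secreted chitinase-like protein, averaged 418 ± 622 CPM in KO rim and 130 ± 125 CPM in WT rim. Lists of other cells went with the 10 genes to different degrees over the 17 libraries. The summed log2 level of the neutrophil list followed their mean with r = 0.896, the alveolar list with 0.757, epithelium and tumour with 0.655, MHC class II with 0.501 and the B cell list with 0.0849, while the T cell and CD8 list went at -0.236. These correlations are descriptions, and the part of other cells in them was not tested.

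**Figure D5:**
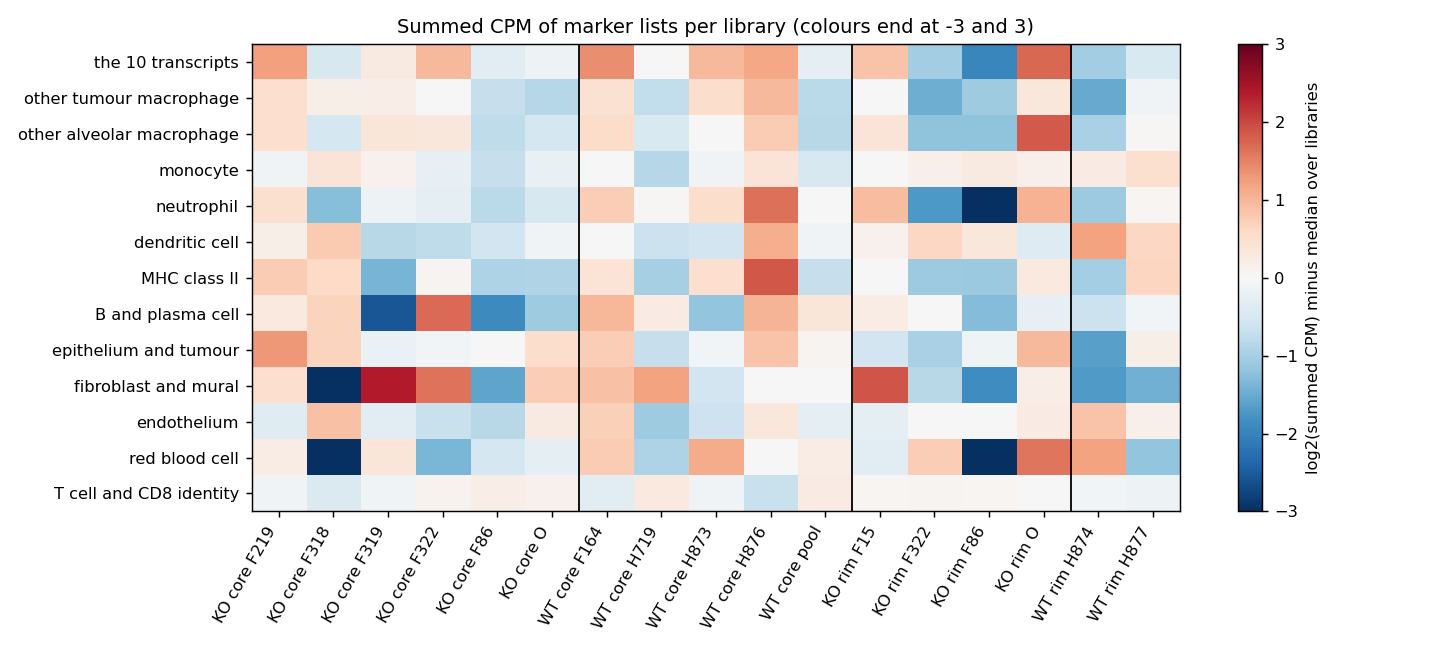
Summed CPM of the 10 genes and of 12 other marker lists in each library, as log2 difference from the list's median over libraries, with colours ending at -3 and 3; vertical lines part KO core, WT core, KO rim and WT rim. The 10 genes are lowest in KO rim F86 and highest in KO rim O, and the summed T cell and CD8 list runs from 5425 CPM in WT core H876 to 10460 CPM in WT core H719.

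The genes lie on several chromosomes of GRCm38, in positions from RefSeq, with strands and overlapping genes from the GENCODE annotation. C1qa is at chromosome 4, 136895916 to 136898844, C1qb at 136880126 to 136886200 and C1qc at 136889801 to 136892936, all on the minus strand. Apoe is on chromosome 7 (19696244 to 19701310, minus strand), Spp1 on chromosome 5 (104435111 to 104441053, plus strand) and Lyz2 on chromosome 10 (117277541 to 117282272, minus strand). Csf1r is on chromosome 18 (61105572 to 61131139, plus strand), Adgre1 on chromosome 17 (57358581 to 57483529, plus strand), Mrc1 on chromosome 2 (14229414 to 14332023, plus strand) and Marco on chromosome 1 (120474538 to 120505024, minus strand). Spp1 overlaps Gm42793, Mrc1 overlaps Mir511 and Csf1r overlaps Mir6983, each on the same strand, and reads of the shared parts cannot be told apart.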

How the data were processed

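Raw counts for the 17 libraries, as the authors deposited them, fill a single table with a row for each gene symbol, and its columns all matched labelled samples. Per the submitters' processing notes, featureCounts, Subread 2.0.0, HISAT2, Bowtie2 2.4.5 and cutadapt 3.2 were used, and the builds named are mm10 and GRCm38. Roles and settings are not given, and whether counting used the strand is not given in the sources used here.

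In edgeR 4.0.16 (R 4.3.3), filterByExpr with the 4 groups left 20137 of 27240 genes, TMM scaled the libraries, and 1 quasi-likelihood fit with robust dispersion covered all 17 libraries, which lends the 2 WT rim libraries a spread estimated from every group. Tests were two-sided, Benjamini-Hochberg adjustment took in all 20137 tested genes, and called means an adjusted p under 0.05. Alternatives used DESeq2 1.42.0, limma 3.58.1, other scalings, no filter, female libraries alone and each library left out in turn. Correlations used log2 CPM with a prior count of 2 (SciPy 1.17.1, NumPy 2.4.6). The code was tested on simulated data. Totals of 21767045 to 32566456 counts make 3 counts worth 0.0919 to 0.141 CPM.

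The members and the gene lists were chosen with earlier results of these data known. Named genes are the 10 members, the 3 genes most alike each member and the 10 most alike their mean, and up to 4 genes per list (those called, otherwise the most abundant). Apoc4, Camp and Elane, which are on the lists, were not analysed here.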

Additional observations from a re-analysis of the deposited data

Results flagged for a closer look

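In KO core, library F319 stood apart from the other 5 for Spp1, with 633 CPM where the next highest library had 195 CPM, a gap of 0.768 of the group's range against a critical value of 0.625. The same library stood apart for Mrc1, with 48.2 CPM where the next had 20.7 CPM, a gap of 0.726 of the range. F319 was also the highest KO core library for Marco (11.03 CPM) and for the summed genes of fibroblasts and mural cells (167 CPM, against 1.97 to 99.0 CPM in the other KO core libraries), and the lowest for B and plasma cell genes (204 CPM). In C1qb it stood in the middle of the group with 184 CPM. Of 30 sets of 4 to 6 libraries examined, 2 were picked out, and chance picks out about 1 in 20.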

How the results depend on the processing

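Of 1210 alternative values for the 50 log2 fold changes, 1138 kept direction and side of the threshold, 40 changed sign, 18 were no longer past it and 14 became so. In WT core against WT rim, the members called were 6 with DESeq2, 1 without a filter, 1 under T cell gene scaling, 0 with limma voom weights and 0 to 4 with a library left out, and for genes called, core over rim in WT, the counts were 1907 with DESeq2, 634 without a filter, 274 under T cell gene scaling, 139 with limma voom weights, 313 in female libraries alone and 68 to 851 with a library left out. DESeq2 called 4 members (268 genes) in KO against WT rim, 4 members (161 genes) for the core and rim difference, 35 genes in KO core against KO rim and 9 genes in KO against WT core. In KO against WT rim, genes called were 2 without a filter, 6 with limma voom weights, 13 under T cell gene scaling and 0 to 26 with a library left out; for the difference of genotype effects they were 4 without a filter, 11 under T cell gene scaling and 0 to 14 with a library left out; in KO core against KO rim they were 2 with limma voom weights. Passing pairs of members were 23 in core alone and 42 to 45 with a library left out. The causes were not tested.

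KO core and KO rim libraries with the same identifier had correlations of deviations of 0.0721 for F322, 0.0449 for F86 and 0.0818 for O. Correlations for different identifiers ran from -0.201 to 0.242. By reads of sex-linked genes, each shared identifier was of the same sex at both sites. These values cannot tell whether shared identifiers mark the same mice. With the identifier as a replicate block in limma voom, 0 members were called in WT core against WT rim, beside 2.76% of all genes (556). That fit called 8 genes in KO against WT rim and 2 genes in KO core against KO rim. Apoe in KO against WT core turned to 0.0504 under the block (0.0702 with weights alone). In KO core against KO rim the block turned Lyz2 to 0.15, Csf1r to 0.10 and Mrc1 to 0.31. It turned the Marco log2 fold change, core over rim in KO, to 0.0494. In edgeR on the 3 pairs with the replicate block, the Csf1r log2 fold change, core over rim in KO, was 0.0731, with Lyz2 at 0.73, Adgre1 0.19, Mrc1 0.53 and Marco 0.85, and in female libraries alone the same comparison gave 0.13 for Lyz2, 0.21 for Csf1r, 0.25 for Adgre1, 0.38 for Mrc1 and 0.11 for Marco. With a library left out, KO core against KO rim ran from -0.28 to 0.87 for C1qa, -0.20 to 0.84 for C1qb, -0.13 to 0.94 for C1qc, -0.23 to 0.67 for Apoe, -0.71 to 0.51 for Lyz2, -0.59 to 0.37 for Csf1r, -0.76 to 0.43 for Adgre1, -1.06 to 0.57 for Mrc1 and -1.70 to 0.78 for Marco, and KO against WT core from -0.22 to 0.26 for Apoe and -1.50 to 0.13 for Marco. Leaving out a WT rim library assumes that the remaining one varies like the other groups, and without H874, Marco was 0 in WT rim and has no interpretable fold. With 3 counts worth 0.0919 to 0.141 CPM, levels under that could not be seen at this depth.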

Other observations

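Genes of blood monocytes were split as a list between WT core and WT rim, and their summed level followed the mean of the 10 transcripts with r = 0.576. Of 11, 5 had positive and 6 negative log2 fold changes in WT core against WT rim, with a median of -0.52 and none called by edgeR. Nr4a1, an early response gene of T cells and of patrolling monocytes, averaged 902 ± 338 CPM in WT core and 1510 ± 323 CPM in WT rim. Fn1, which encodes fibronectin, averaged 393 ± 158 CPM in WT core and 50.8 ± 8.95 CPM in WT rim (log2 fold change 2.95, edgeR adjusted p = 0.0883) and followed the mean of the 10 with r = 0.884.

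Of 11 dendritic cell genes, 4 were positive in WT core against WT rim (median -0.34), 1 in KO rim against WT rim (median -0.87) and 9 in KO core against KO rim (median 0.88), with none called by edgeR. The difference of the genotype effects, core minus rim, was positive for 10 of the 11 (median 0.75). Their summed level was 972 to 3221 CPM in WT core and 1171 to 2340 CPM in KO rim, against 2351 and 3482 CPM in WT rim. Ccr7 had the highest mean of the 11 in each group and weighed most in this sum. It ran from 436.7 to 1260 CPM in WT core and from 863.5 to 2088 CPM in KO rim. In WT rim it stood at 830.4 and 3187 CPM. The sum is therefore no measure of dendritic cells as such, and the part of T cells in the Ccr7 level was not tested.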
